A study of Mus musculus with 15 samples.

Results

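The genes described here are 10 immediate early transcription regulators, Fos, Fosb, Jun, Junb, Jund, Egr1, Egr2, Egr3, Atf3 and Ier2. They were taken by name, by a rule that uses no measured value, although the list was drawn up with earlier results of these data known. All 10 were found among the 54532 genes of the forebrain table and the 32285 features of the microglia matrices. All animals were C57BL/6 mice with floxed Atg7 alleles (ATG7FF), and Atg7 is required to build the autophagosome. The conditional knockout (cKO, ATG7FF;Cx3cr1CreER) also carried a tamoxifen-inducible Cre driven by the Cx3cr1 gene, which is active in microglia and other Cx3cr1-expressing myeloid cells. The control animals had no Cre, and every animal received 1.5 mg of tamoxifen at 2 months and was sampled at 8 months. The single-cell experiment used mice without an amyloid transgene, and microglia were pooled from 3 control or 4 cKO forebrains into 1 library per genotype. The forebrain experiment used mice that also carried 5xFAD, a transgenic model of amyloid deposition, with 6 control and 7 cKO libraries. The labels do not say that each forebrain library was a separate mouse, so a p-value here measures spread between these samples only, and that spread may be technical. The labels give the pooled sort as CD11b-high and CD45-low cells, obtained after Dounce homogenization and a Percoll gradient.

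Immediate early genes are transcribed within minutes of a stimulus from factors already present in the cell, before any new protein is made. Fos and Jun family proteins pair through leucine zippers to form AP-1, while Egr proteins bind GC-rich sites through zinc fingers. In brain the same genes mark neuronal firing, and in microglia they respond to inflammatory, mechanical and tissue handling stimuli.

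Promoter sequence is shown for 4 members because the inputs to these genes are read there: Fos and Fosb had the largest differences between the microglia libraries among members above 20 CPM (counts-per-million, the count as a part of the library total), Jun carries the best known self-regulated AP-1 site, and Egr2 carries matches to the serum response element core. RefSeq promoters of build GRCm38.p6, which has the coordinates of mm10, were used here for 7 of the 10 members. Each sequence is the 250 bases before the annotated start, 5′ to 3′ on the strand of the gene, and capitals mark every motif match. The windows are chr12:85473640-85473889 on the plus strand for Fos, chr7:19310046-19310295 on the minus strand for Fosb, chr4:95052223-95052472 on the minus strand for Jun, and chr10:67537619-67537868 on the plus strand for Egr2. Egr2 has 5 windows in RefSeq, and the one printed lies inside the bounds of the gene, 67535475 to 67542188. Its place relative to exons was not checked.
Fos: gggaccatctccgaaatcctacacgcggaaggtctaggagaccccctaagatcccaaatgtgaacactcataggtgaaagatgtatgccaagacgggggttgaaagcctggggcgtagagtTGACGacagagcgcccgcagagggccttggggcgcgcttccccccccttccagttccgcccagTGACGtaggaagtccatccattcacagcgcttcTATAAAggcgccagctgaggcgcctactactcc
Fosb: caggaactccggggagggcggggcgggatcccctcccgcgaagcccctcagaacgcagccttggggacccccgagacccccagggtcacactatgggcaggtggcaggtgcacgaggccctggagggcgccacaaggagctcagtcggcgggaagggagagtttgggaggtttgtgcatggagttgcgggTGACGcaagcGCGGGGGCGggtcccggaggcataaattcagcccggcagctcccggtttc
Jun: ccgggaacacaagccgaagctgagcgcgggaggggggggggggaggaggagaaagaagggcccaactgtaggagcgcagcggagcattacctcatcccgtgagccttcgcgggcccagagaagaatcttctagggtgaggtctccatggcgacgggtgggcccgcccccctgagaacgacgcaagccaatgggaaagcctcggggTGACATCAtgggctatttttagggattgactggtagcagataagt
Egr2: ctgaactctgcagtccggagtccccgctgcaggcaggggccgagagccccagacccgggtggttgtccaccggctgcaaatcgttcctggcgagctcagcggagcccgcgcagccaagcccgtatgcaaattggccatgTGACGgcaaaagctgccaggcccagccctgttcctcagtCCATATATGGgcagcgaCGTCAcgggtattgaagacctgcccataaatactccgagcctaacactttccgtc

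Counted back from the start at -1, the Fos promoter held TGACG, the half-site of the cyclic AMP response element (CRE), at -129 to -125 and at -66 to -62, and a TATAAA box at -33 to -28. Fosb held TGACG at -60 to -56 and the Egr site GCGGGGGCG at -50 to -42. Jun held TGACATCA, the AP-1-like element of its own promoter, at -45 to -38. Egr2 held TGACG on the plus strand at -111 to -107 and on the minus strand at -55 to -51, with a CArG box, the core of the element bound by serum response factor, at -72 to -63. Both strands were searched, and TGACG also lies inside the full CRE, TGACGTCA, which was in no window of a member. Over 32851 mouse promoter windows of the same length, TGACG was in 17.8%, TATAAA in 12.4%, TGACATCA in 2.93%, GCGGGGGCG in 2.57%, the CArG box in 1.47% and TGACGTCA in 1.55%. Among the members without a printed sequence, Junb held TGACG at -106 to -102 and Atf3 held it at -7 to -3. The AP-1 site TGACTCA, in 4.46% of windows, and the second Egr site GCGTGGGCG, in 0.536%, were in no window of a member. These matches are letters in a window and were not tested for binding.

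The forebrain libraries held 16658707 to 22355512 counts. The microglia libraries differed in depth: 6243 control cells with a median of 1392 molecules (unique molecular identifiers, UMIs) were kept, against 8874 cKO cells with a median of 4531.5. The libraries shared 22 cell barcodes, and doublets were not called. In microglia Atg7 itself gave 15.8 CPM in control and 18.1 CPM in cKO cells (cKO over control 1.15, 95% interval 0.960 to 1.38). In forebrain Atg7 had a lowest, median and highest CPM of 21.2, 24.1 and 27.4 in controls and 22.8, 24.9 and 25.8 in the cKO, so neither assay checked the deletion: tags from the 3′ end, and reads over a whole gene in mixed tissue, can come from a transcript that lost an internal exon. Of 12 microglia markers, all were above 20 CPM in the sorted cells. Summed markers of other types in the control and cKO libraries were 4.28 and 10.8 CPM for neurons, 6.14 and 14.5 CPM for border macrophages, 9.10 and 5.42 CPM for monocytes, and 0 and 0.05 CPM for neutrophils. They were 328 and 321 CPM for lymphocytes, 163 and 179 CPM for astrocytes, and 76.7 and 71.2 CPM for oligodendrocytes. For vascular cells they were 56.8 and 52.6 CPM, and for erythrocytes 0.438 and 0.949 CPM. Few genes carried the larger sums. Of 10 lymphocyte markers 2 reached 20 CPM, Ighm at 287 and 280 CPM and Cd79b at 40.0 and 40.1 CPM. Slc1a3 alone gave 161 and 175 CPM of the astrocyte sum, and Pecam1 55.4 and 51.7 CPM of the vascular sum. Mag and Mbp were the only 2 of 7 oligodendrocyte markers at 20 CPM. These sums are therefore not read as the share of such cells in the sort.

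In sorted microglia, all 10 genes had a lower share of the RNA in the cKO library than in the control library. The size ran from 4.58-fold for Fos to 1.40-fold for Junb, with a median over all 10 of 2.53-fold (log2 -1.34). Of the 8 members with at least 20 CPM in 1 library, 7 were lower by at least 1.5-fold, beside 1.43% of all 6769 genes at that level. The median log2 ratio was -1.03 for these 8 members and 0.05 for all genes at that level. Fos had the lowest ratio of those 6769 genes, Fosb the 4th lowest and Egr1 the 7th lowest. There was 1 library per genotype, so no test was made, and the intervals given for these libraries are 95% and cover counting error only.

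Among members above 20 CPM, the Fos genes had the lowest ratios over all kept cells. Fos, the AP-1 partner that cannot pair with itself (chromosome 12, 85473890 to 85477273), had 14786 UMIs or 1621 CPM in the control and 14163 UMIs or 354 CPM in the cKO library, 4.58-fold lower (4.48 to 4.69). Fosb, its close relative (chromosome 7, 19302696 to 19310051), stood at 403 CPM in the control and 104 CPM in the cKO library, 3.88-fold lower (3.71 to 4.05). Per cell, and so without dividing by total UMIs, Fos had 2.37 UMIs in control and 1.60 in cKO cells, although the median cKO cell held more UMIs. By this measure Fosb, Egr1 and Egr3 were also lower in the cKO library, while Jun, Junb, Jund, Egr2, Atf3 and Ier2 were higher. Fos and Fosb together took 0.202% of control UMIs and 0.0458% of cKO UMIs, 4.42-fold lower (4.33 to 4.51).

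The Jun genes, which supply the partners of Fos proteins and can also pair among themselves, differed less. Jun (chromosome 4, 95049034 to 95052222, a gene of 1 exon) stood at 4763 CPM in the control and 2569 CPM in the cKO library, 1.85-fold lower (1.83 to 1.88). Jund, the most constitutively transcribed of the family (chromosome 8, 70698949 to 70700616), stood at 2032 and 1271 CPM, 1.60-fold lower (1.57 to 1.63). Junb, which forms weaker activators than Jun (chromosome 8, 84974484 to 84978718), stood at 1587 and 1135 CPM, 1.40-fold lower (1.37 to 1.42), and was the 1 member above 20 CPM that stayed under the 1.5-fold limit. The 3 Jun genes together were 1.68-fold lower (1.67 to 1.70), an interval that lies apart from that of the Fos genes. UMIs per cell of Jun, which are not divided by depth, were 11.6 in the cKO and 6.96 in the control library, beside the median depths of 4531.5 and 1392 UMIs.

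Among the Egr genes, Egr1, a zinc finger activator induced through serum response elements, stood at 1533 CPM in the control and 447 CPM in the cKO library, 3.43-fold lower (3.36 to 3.51). Egr2 (chromosome 10, 67535475 to 67542188) rested on 132 control and 204 cKO UMIs, 14.5 and 5.10 CPM, 2.84-fold lower (2.26 to 3.55). Egr3 (chromosome 14, 70077203 to 70082614) rested on 108 and 124 UMIs, 11.8 and 3.10 CPM, 3.82-fold lower (2.93 to 4.99). Atf3, a stress-induced factor that pairs with Jun proteins (chromosome 1, 191170296 to 191218039), stood at 107 and 62.5 CPM, 1.71-fold lower (1.59 to 1.84). Ier2, a small nuclear regulator without a zipper (chromosome 8, 84661331 to 84662852), stood at 323 and 144 CPM, 2.25-fold lower (2.15 to 2.35). All 10 genes together made up 1.24% of control UMIs and 0.609% of cKO UMIs.

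**Figure D1:**
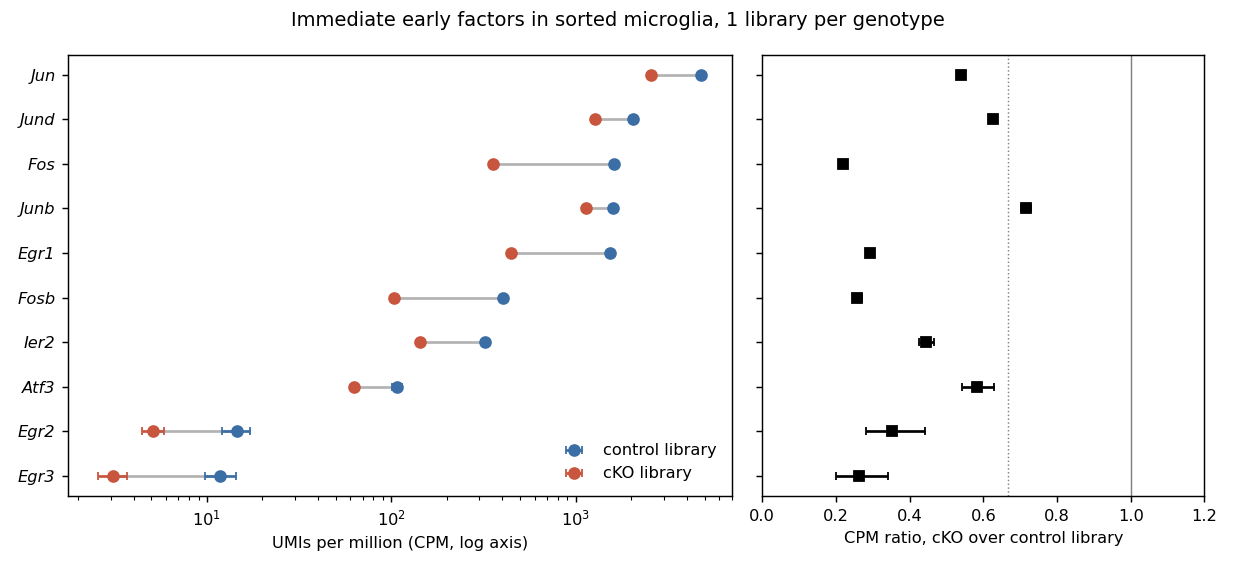
Level of each gene in the control and cKO microglia libraries in CPM (left, log axis) and their ratio (right), with 95% counting intervals. The dotted line marks a value lower by 1.5-fold and the solid line no difference. All 10 ratios lie under 1, from 0.218 for Fos to 0.715 for Junb.

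The difference was also seen cell by cell. To remove the gap in depth, each cell was thinned to 1000 UMIs, which left out 588 control and 543 cKO cells and kept 5655 and 8331. A Fos UMI was then found in 62.6% of control cells (exact Clopper-Pearson 95% interval 61.3 to 63.9) and 21.0% of cKO cells (20.2 to 21.9). Unthinned, the shares were 67.9% and 40.2%. Fosb was found in 27.7% of control and 8.64% of cKO cells after thinning, and Egr1 in 69.3% and 27.2%. Jun RNA was in nearly every control cell, at 96.2%, and in 80.1% of cKO cells. The thinned shares were 73.1% and 60.5% for Junb, 81.3% and 63.2% for Jund, 25.0% and 11.8% for Ier2, and 9.30% and 5.51% for Atf3. Without thinning, Junb (82.5% and 87.8%) and Atf3 (12.7% and 19.9%) had the higher share in the cKO library, against their CPM, so no order is read from those unthinned shares. The thinned shares of Egr2 (1.38% and 0.396%) and Egr3 (1.13% and 0.216%) are near the level of 1 UMI and are not read as a change. The sort held no class of cells known to lack these genes, so the part of free RNA in the shares was not tested.

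The thinned control cells held several of these RNAs at once. The median control cell had UMIs of 5 of the 10 genes and the median cKO cell of 3. At least 5 genes were found in 51.5% of control cells (50.1 to 52.8) and 13.3% of cKO cells (12.6 to 14.1), and 0 or 1 gene in 1.91% (1.57 to 2.30) and 20.6% (19.7 to 21.5). Summed over the 10 genes, the median was 12 UMIs in control and 6 in cKO cells, with the 5th to 95th percentile from 4 to 23 and from 0 to 16, so the cells of both libraries overlapped. At least 3 Fos UMIs were found in 25.9% of control (24.7 to 27.0) and 3.93% of cKO cells (3.52 to 4.36).

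**Figure D2:**
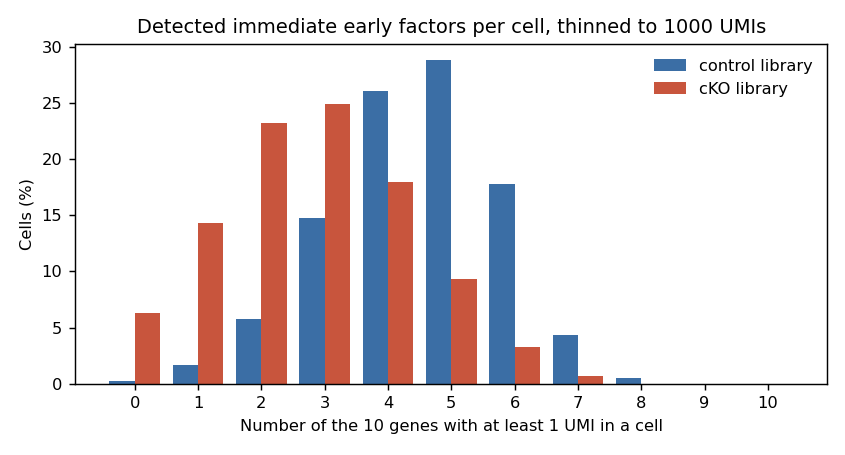
Share of cells by the number of the 10 genes with at least 1 UMI, after thinning each cell to 1000 UMIs, for 5655 control and 8331 cKO cells. The control cells centre on 5 genes and the cKO cells on 3, with 20.6% of cKO cells at 0 or 1.

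Within each library, cells with a Fos UMI more often had Fosb or Egr1. In the control library 32.6% of cells with a Fos UMI also had Fosb, against 19.4% of the cells without Fos, and in the cKO library 19.7% against 5.70%. For Egr1 the shares were 73.3% and 62.6% in the control and 44.2% and 22.7% in the cKO library. Egr2 and Egr3 went the other way in the control library, at 1.19% against 1.70% and 0.989% against 1.37%, on few cells. Of 3201 genes ranked by their mean correlation with Fos across thinned cells, the first 8 were Jun, Fosb, Egr1, Jund, Btg2, Junb, Klf2 and Dusp1. These correlations were weak, from 0.21 to 0.12, over cells that share a library, and are given as a description.

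The depth of the cells touched the size of some differences. Of the control cells 91.8% had under 2000 UMIs, against 17.8% of the cKO cells, so the libraries overlap in depth only in part. Fos ranged from 1587 to 1652 CPM over 5 depth bins of control cells and from 336 to 549 CPM over 8 bins of cKO cells, with no overlap. The bins of Fosb, Jun, Jund, Egr1 and Ier2 did not overlap either, while those of Junb, Egr3 and Atf3 did. Egr2 had too few UMIs per bin to be read this way: its ratio at 1500 to 2000 UMIs was 0.668, with an interval of 0.173 to 1.85. Among cells with 2000 to 3000 UMIs (417 control and 454 cKO cells), Fos stood at 1594 and 355 CPM, a ratio of 0.223 (0.200 to 0.248). In the same cells the ratio was 0.273 for Egr1 (0.246 to 0.302), 0.633 for Jun (0.605 to 0.661) and 0.925 for Junb (0.860 to 0.994).

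Among cells with 1000 to 2000 UMIs, 5144 control and 1033 cKO cells, the median log2 ratio of the 10 genes was -0.76, and 4 of the 8 members above 20 CPM were lower by at least 1.5-fold. These 4 were Fos (log2 ratio -1.62), Fosb (-1.30), Egr1 (-0.91) and Ier2 (-0.61). The share of all genes past this limit was not counted in these cells. The cKO cells of this depth also differed in other RNAs: at 1000 to 1500 UMIs, the microglial protease gene Ctss stood at 6304 CPM in control and 2168 CPM in cKO cells, and the nuclear RNA Malat1 at 43850 and 115766 CPM. At 2000 to 3000 UMIs the ratio of Ctss was 0.829 and that of Malat1 1.54. Without the cKO cells under 2000 UMIs, the median over the members was -1.36 and 7 members stayed past 1.5-fold. The share of all genes was not counted in this setting either. Depth, genotype and library cannot be told apart with 1 library each.

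**Figure D3:**
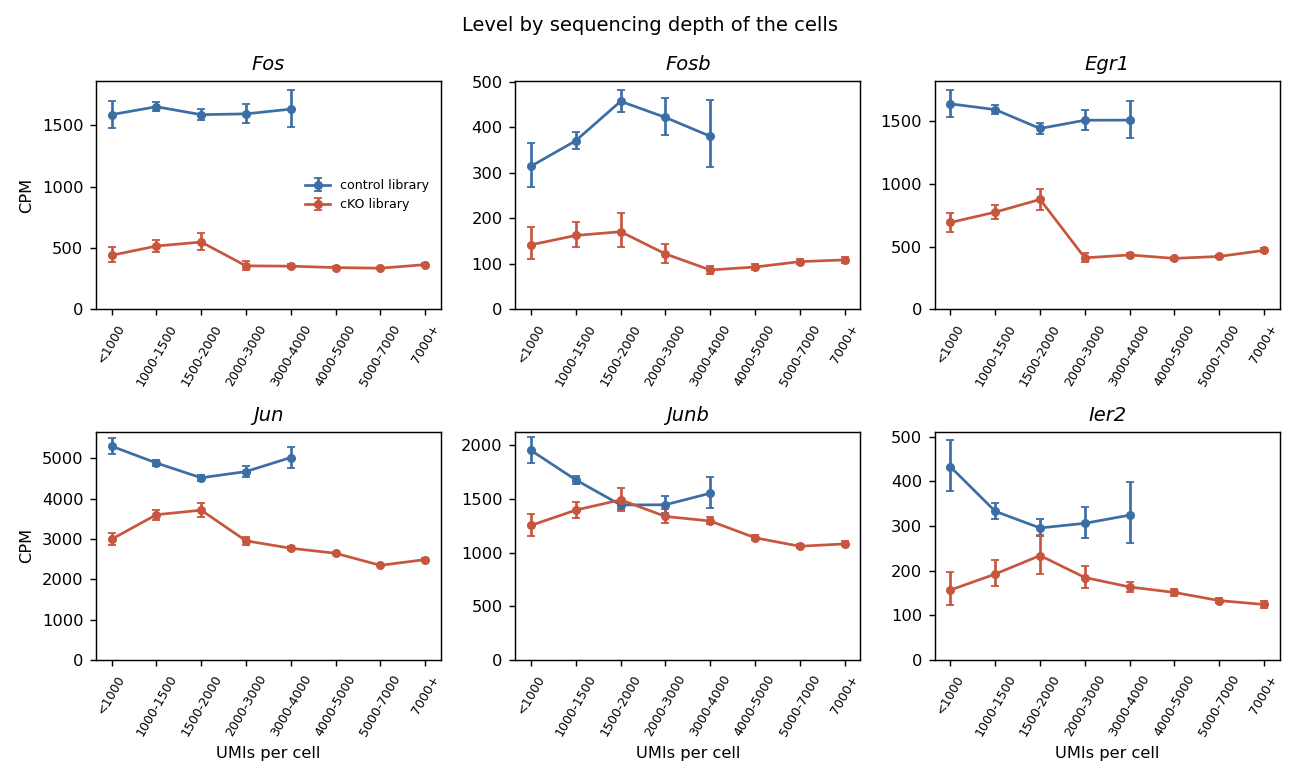
CPM of 6 of the genes in cells grouped by their UMI count, with 95% counting intervals; 5 bins hold control and 8 hold cKO cells. Fos in cKO cells stays between 336 and 549 CPM in every bin, and Junb crosses the control value at 1500 to 2000 UMIs.

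Among RNAs of upstream factors, relatives and corepressors above 20 CPM, only Nab1 passed the 1.5-fold limit. The activity of the proteins was not tested. Of 14 other AP-1 family and related zipper genes, 7 reached 20 CPM and 0 were lower or higher by 1.5-fold, with a median log2 ratio of 0.13. Of the 7, 2 were lower at all. These were Atf4, with a ratio of 0.704 (0.667 to 0.743), and Batf3, with 0.722 (0.649 to 0.804), near the 0.715 of Junb. Of the regulators that act at these promoters (serum response factor, its ternary complex and MRTF partners, CREB and MEF2 genes), 7 of 14 reached 20 CPM and 0 passed the limit. Of 18 MAP kinase pathway genes 13 reached 20 CPM and 0 passed, and of 13 late neuronal activity genes 3 reached 20 CPM and 0 passed. Nab1, whose product represses Egr proteins, was the only 1 of 3 Egr relatives and corepressors above 20 CPM, at 16.7 CPM in control and 27.9 CPM in cKO cells, higher by a ratio of 1.67 (1.41 to 1.99).

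Other early response genes were mostly lower too. Of 28 listed, 15 reached 20 CPM, and 14 of these were lower in the cKO library. By at least 1.5-fold, 5 were lower and 0 higher, with a median log2 ratio of -0.33. The 5 were Klf4 and Klf2, zinc finger factors of the Krüppel-like family, with ratios of 0.382 and 0.616, Dusp1, the MAP kinase phosphatase, with 0.531, Nfkbiz, an inducible NF-kB cofactor, with 0.585, and Socs3, an inhibitor of cytokine signalling, with 0.638. Arc, a neuronal early gene, had 3 control and 4 cKO UMIs, and Npas4 and Egr4 had 0 in both libraries, which allows up to 0.329 CPM in the control and 0.0749 CPM in the cKO library. Of 10 heat shock genes that also respond to tissue dissociation, 7 reached 20 CPM and 6 of these were lower. Of the 7, 0 passed the limit, and the median log2 ratio was -0.24. Of the 12 microglia markers 11 were lower and 1 passed the limit, Cx3cr1, the locus of the Cre knock-in, at 5336 and 2767 CPM. The median log2 ratio of the 12 was -0.13. The part of handling of the pooled tissue, which the heat shock genes also read, was not tested.

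In 5xFAD forebrain, none of the 10 genes passed the test of cKO against control, edgeR's quasi-likelihood test with Benjamini-Hochberg adjustment. Of 16956 genes tested, 56 or 0.330% passed an adjusted p of 0.05, and 0 of the 10 members did. An unadjusted p under 0.05 was reached by 7.71% of the tested genes and by 0 members with edgeR and with DESeq2. The groups did not overlap for 0.442% of the tested genes, and they overlapped for all 10 members. The members' log2 differences had a median of 0.06, with 8 positive and 2 negative, against a median of 0.0016 over all genes. Forebrain RNA is a mixture of cells, in which fewer cells of a type and less RNA per cell cannot be told apart, and 9 of the 12 microglia markers fell in the same fit, with a median log2 difference of -0.64. The part of this fall in the members' values was not tested. No gene of the pathway lists passed: 0 of 12 tested AP-1 relatives, 0 of 3 Egr relatives and corepressors, 0 of 14 promoter regulators, 0 of 18 MAP kinase genes, 0 of 28 other early response genes, 0 of 13 late neuronal activity genes and 0 of 10 heat shock genes, of which 1 promoter regulator and 1 MAP kinase gene had an unadjusted p under 0.05 by edgeR.

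Levels between the genes were compared per length, as RPKM, the CPM per kilobase of exon. In control forebrain, Egr1 was highest at 89.5 ± 8.67 (SD, n = 6), followed by Junb at 46.7 ± 9.30, Egr3 at 46.3 ± 11.8, Jund at 37.6 ± 5.94, Fos at 27.0 ± 1.87 and Jun at 19.9 ± 1.63. Ier2 followed at 10.3 ± 1.98, then Fosb at 5.35 ± 1.75, Egr2 at 5.34 ± 0.507 and Atf3 at 1.60 ± 0.929. The neighbours Junb, Egr3 and Jund lay within their spread of each other, as did Fosb and Egr2.

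Fos in the control forebrain libraries had a lowest, median and highest level of 56.1, 64.1 and 68.9 CPM. In the cKO libraries the values were 39.9, 60.3 and 95.2 CPM. Libraries 2, 6 and 7 of the cKO, at 92.3, 91.9 and 95.2 CPM, lay above every control, libraries 1 and 3, at 39.9 and 51.8 CPM, lay below every control, and libraries 4 and 5 lay between. The means were 63.5 ± 4.39 (SD, n = 6) and 70.1 ± 22.6 CPM (SD, n = 7), a log2 difference of 0.14 (95% interval -0.29 to 0.57, adjusted p = 0.876 by edgeR). Forebrain Fos comes from all cell types of mice with amyloid, so its values are not set against those of the sorted cells. Fosb had 20.6, 30.5 and 49.3 CPM in controls and 12.9, 32.1 and 60.5 CPM in the cKO, a log2 difference of 0.10 (-0.64 to 0.84, adjusted p = 0.951 by edgeR).

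Among the Jun genes the groups also overlapped. Jun ranged over 59.2, 61.2 and 71.3 CPM in controls and 54.9, 65.7 and 74.0 CPM in the cKO, the least variable of the 10 genes, with a log2 difference of 0.03 (-0.11 to 0.18, adjusted p = 0.922 by edgeR). Junb ranged over 79.8, 108 and 139 CPM in controls and 80.9, 120 and 142 CPM in the cKO, with a log2 difference of 0.09 (-0.23 to 0.42). Jund ranged over 45.8, 64.2 and 74.5 CPM in controls and 55.9, 66.5 and 95.5 CPM in the cKO, with a log2 difference of 0.12 (-0.14 to 0.39). Exons of Jun overlap those of Junos on the other strand, and the same holds for Junb with Prdx2 and Jund with Gm11175. No source used here states the strand setting of the counting, and reads of these pairs may not be told apart.

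Egr1 and Egr2 had a wider range in the cKO than in the control libraries. Egr1 had 342, 414 and 441 CPM in controls and 256, 383 and 541 CPM in the cKO, with a log2 difference of 0.01 (-0.33 to 0.36, adjusted p = 0.989 by edgeR). Egr2 had 16.0, 18.4 and 20.5 CPM in controls and 6.74, 20.2 and 26.8 CPM in the cKO, with a log2 difference of -0.02 (-0.55 to 0.52). Its lowest value, in cKO library 1, rested on 150 counts, against 317 to 384 in the controls. The cKO libraries spread on both sides of the controls for Egr1 and Egr2, as they did for Fos, Fosb, Jun and Egr3. Egr3, a slower member of the family, had 134, 221 and 252 CPM in controls and 121, 200 and 256 CPM in the cKO, with a log2 difference of -0.06 (-0.52 to 0.40). Atf3 was near the lower end of detection, with 33 to 133 counts per library and 1.49, 2.91 and 6.13 CPM in controls against 1.80, 3.25 and 7.02 CPM in the cKO. Its log2 difference was 0.20 (-0.70 to 1.10), the widest interval of the 10. Ier2 had 12.5, 14.8 and 19.8 CPM in controls and 12.6, 15.6 and 18.9 CPM in the cKO, with a log2 difference of 0.02 (-0.22 to 0.25).

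**Figure D4:**
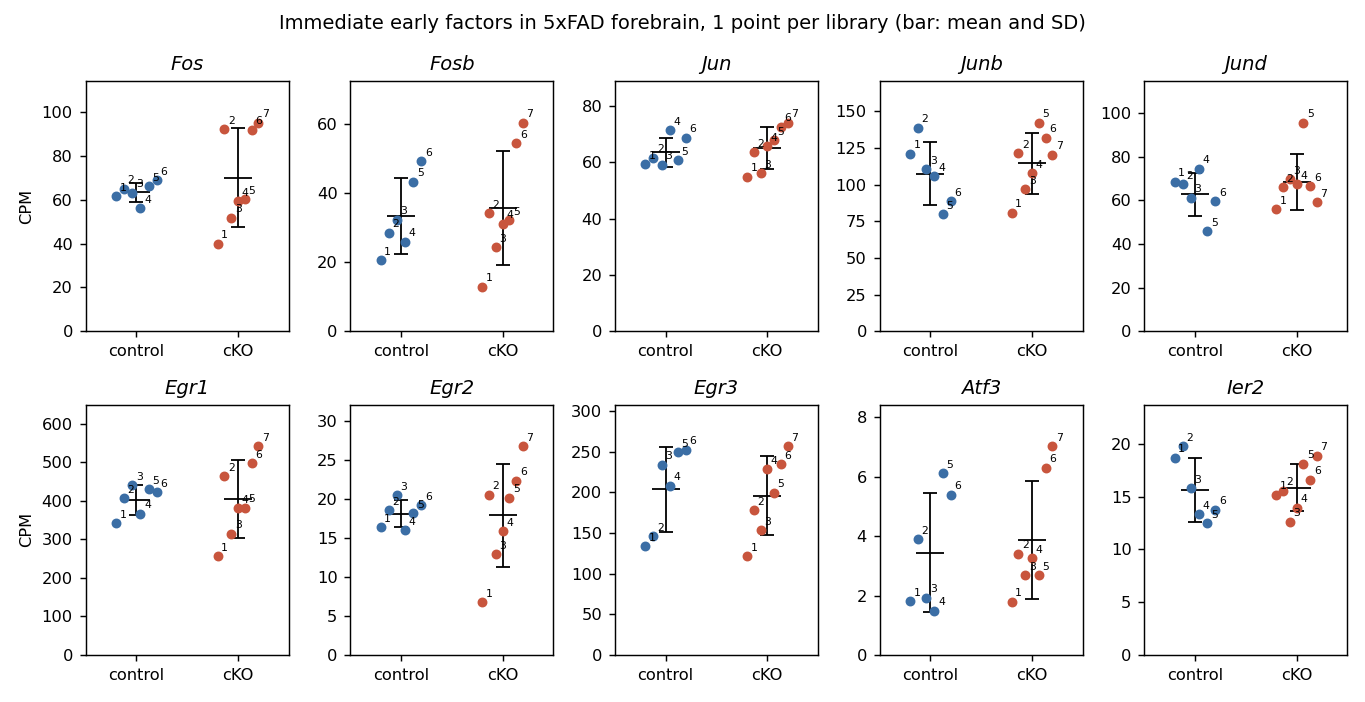
CPM of each gene in every 5xFAD forebrain library, 6 control and 7 cKO, numbered as labelled, with the mean and SD. The groups overlap for all 10 genes, and cKO libraries 2, 6 and 7 are the highest 3 of their group for Fos, Fosb and Egr1.

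Most of these genes varied more between libraries of 1 group than most genes did. The biological coefficient of variation was 49.3% for Atf3, 41.3% for Fosb, 30.1% for Egr2, 26.0% for Egr3 and 24.2% for Fos, all above the 90th percentile of tested genes, whose median was 10.1%. Jun, at 9.19%, was at percentile 41.3. The SD of log2 CPM was larger in the cKO than in controls for 6 of 10 members, beside 58.1% of all tested genes. It was 0.49 against 0.10 for Fos and 0.66 against 0.14 for Egr2, a difference in spread that was not tested.

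The variation of Fos was shared with part of the set. After each library's log2 CPM was taken as a deviation from its group mean, the 8 tested genes most like Fos over the 13 libraries were Egr1 (r = 0.95), Egr4 (0.92), Sltm (0.92), Rpl30-ps10 (0.91), Npas4 (0.90), Nr4a1 (0.90), Egr2 (0.90) and Gm44696 (0.90). Egr4, Npas4 and Nr4a1 are early genes of neuronal activity. In the sorted microglia Nr4a1 had 22 of the 9122532 control UMIs and 92 of the 40031404 cKO UMIs, counts that are not divided by library size. Rpl30-ps10 is a pseudogene of a ribosomal protein and may share reads with its parent. In forebrain Npas4 had 23.5, 29.1 and 31.6 CPM in controls and 20.3, 29.4 and 47.4 CPM in the cKO, with a log2 difference of 0.19 (adjusted p = 0.848 by edgeR).

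Of the 9 other members, Egr1 ranked 1st and Egr2 7th among all tested genes by their likeness to Fos, and Fosb ranked 18th. For Egr1, Pearson's r was 0.95 and Spearman's rho 0.92, with unadjusted permutation p-values within groups of 0.00016 and 0.00043. Leaving out the 2 libraries farthest from the median of Fos gave r = 0.88, and r was 0.64 within the controls and 0.98 within the cKO. For Fosb, r was 0.85 and rho 0.87 (permutation p = 8.0e-05 and 0.00029), with r = 0.65 without those 2 libraries, 0.73 in controls and 0.92 in the cKO. For Egr2, r was 0.90 and rho 0.86 (permutation p = 6.0e-05 and 0.0024), with r = 0.79 without them, 0.69 in controls and 0.90 in the cKO. For Atf3, r was 0.69 and rho 0.79 (permutation p = 9.0e-05 and 5.0e-05), with r = 0.54 without them. For Jun, r was 0.65 (permutation p = 0.047) and rho 0.51 (permutation p = 0.12), and r within the controls was -0.29, so that relation rested on the cKO libraries. Egr3, at r = 0.58 and rho 0.60 (permutation p = 0.035 and 0.039), dropped to 0.24 without the 2 libraries. After Benjamini-Hochberg adjustment over the 9 members, the permutation p of r and of rho was 0.063 and 0.070 for Egr3. For Jun it was 0.070 and 0.18, and for Egr1, Fosb, Egr2 and Atf3 it stayed under 0.05.

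For Junb, Ier2 and Jund no relation with Fos reached an unadjusted permutation p under 0.05, which does not show that there is none. Their r with Fos was 0.48, 0.33 and -0.09, and the rho was 0.35, 0.40 and -0.41 (permutation p of r = 0.10, 0.23 and 0.83, and of rho = 0.26, 0.16 and 0.16). In the order Junb, Ier2 and Jund, r was -0.33, 0.0025 and -0.65 within the controls. Within the cKO it was 0.74, 0.53 and -0.016, and the values of Junb were near those of Jun. Among the 45 pairs of members, Junb had r = 0.78 and rho 0.80 with Ier2 (permutation p = 0.0037 and 0.0027, r = 0.86 without the 2 libraries farthest from the median of Junb). With Jund it had r = 0.68 and rho 0.59 (permutation p = 0.015 and 0.047), which dropped to r = 0.41 without those 2. These pairs were picked after their values were seen.

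**Figure D5:**
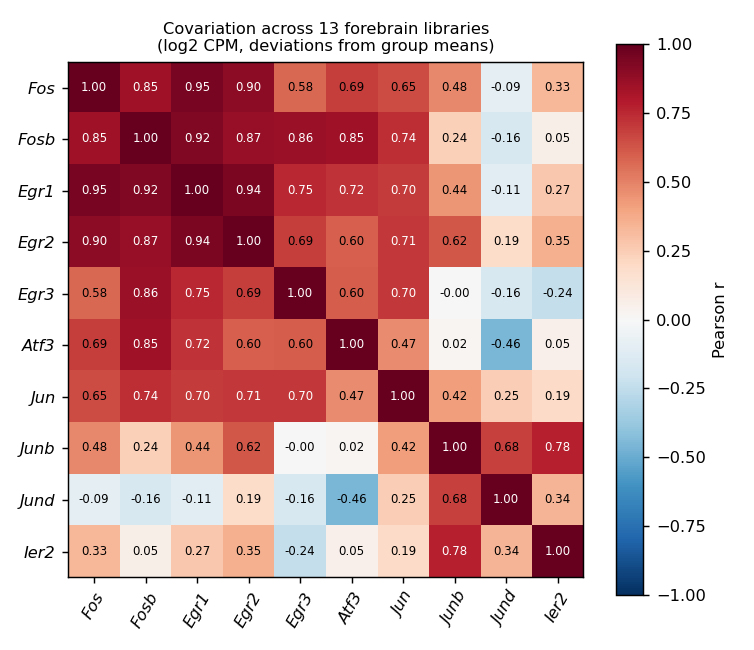
Pearson's r between each pair of genes over 13 forebrain libraries, from log2 CPM as deviations from the group means; red is positive and blue negative. Fos, Fosb, Egr1 and Egr2 form a block from 0.85 to 0.95, while Jund has -0.09 with Fos and 0.68 with Junb.

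The share of counts from mitochondrial genes moved with Jund and Junb. It ran from 3.60% in cKO library 5 to 4.86% in control library 5. Over the 13 libraries, as deviations from group means, its r was -0.87 and rho -0.73 with Jund (unadjusted permutation p = 0.00033 and 0.0077), with r = -0.78 without the 2 libraries farthest from the median share, -0.97 in controls and -0.77 in the cKO. With Junb r was -0.66 and rho -0.60 (permutation p = 0.021 and 0.044), with r = -0.67 without those 2. With Jun r was -0.49 and rho -0.46 (permutation p = 0.092 and 0.13). With Fos r was -0.05 and rho 0.12 (permutation p = 0.87 and 0.70), although r was 0.74 in controls and -0.22 in the cKO. All 10 members were set against this share, and the other 6 had a permutation p of r of at least 0.25. Jund was lowest in control library 5, at 45.8 CPM, and highest in cKO library 5, at 95.5 CPM. Without these 2 libraries the log2 difference was -0.04 for Jund and -0.04 for Junb. The part of RNA quality or tissue composition in this pattern was not tested.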

How the data were processed

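The authors ran Cell Ranger 6.1.0 on 10x 3′ libraries, as the file headers record, and deposited a count of UMIs for each gene and barcode. The deposited forebrain table holds raw read counts per gene, made from poly-A RNA. Per the submitters' processing notes, reads were aligned to mm10 by HISAT2 2.0.5 and counted by featureCounts 1.5.0-p3. For annotation release and strand setting the entry is: not given in the sources used here. All 15 samples were used, and 0 columns were left out.

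Barcodes were required to have 500 genes or more and no more than 10% of UMIs from mitochondrial genes, and their counts were summed per library and scaled to CPM. Cells were not clustered, since clusters built from all genes could choose cells by the genes described. Intervals of a level, a ratio and a share are exact Poisson, conditional binomial and Clopper-Pearson intervals at 95%. UMIs of a cell are not independent samples of the genotype.

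Forebrain counts were tested with edgeR 4.0.16 (R 4.3.3; genes filtered on low counts, TMM, robust quasi-likelihood, two-sided) over all 16956 genes that passed the filter, and all 10 members passed. DESeq2 1.42.0 was an alternative. CPM was scaled by the TMM library sizes. Correlations used 100000 permutations within groups, two-sided. Tested on simulated counts of this design, with 16759 genes, edgeR called 92% of 2-fold and 78% of 1.5-fold increases, and 88% and 68% of the matching decreases, with 10 false calls. The changed genes were drawn at random from all tested genes, whose median biological coefficient of variation was 10.1%. Most members varied more, such as Fos at 24.2%, so these shares do not say how often a change in a member would be called. Labels give both forebrain groups numbers from 1, and they were not used to pair libraries.

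All members are named, with up to 5 genes per pathway list past the threshold and the 8 genes most like Fos. Members and lists were chosen with earlier results of these data known.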

Additional observations from a re-analysis of the deposited data

Results flagged for a closer look

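Of 20 groups of forebrain libraries, 10 genes in each genotype, 1 held a library far from the others of its group, and chance flags about 1 group in 20. This was Jund in cKO library 5, at 95.5 CPM, where the gap to the next library was 0.654 of the range of the group. The other cKO libraries lay between 55.9 and 69.6 CPM.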

How the results depend on the processing

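No forebrain member passed the adjusted threshold under any of 19 alternatives, and the lowest adjusted p of any member was 0.612. The count of all genes called, 56, was 56 with DESeq2's size factors in edgeR, 83 with DESeq2, 82 without a filter and 35 to 73 when 1 library was left out. With a replicate block it was 20 over 12 libraries. Same-numbered libraries correlated from -0.23 to 0.16, with 2 of 6 pairs over 0.1 and 2 of 6 controls matching their own number best, so the numbers are not taken to pair the libraries.

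Forebrain differences near 0 changed sign without becoming calls. With the replicate block they were -0.13 for Fosb, -0.094 for Egr1, -0.019 for Ier2 and -0.00014 for Jun. Without control library 5 and cKO library 5, an alternative chosen after seeing the data, they were -0.035 for Junb, -0.045 for Jund, -0.067 for Ier2 and 0.0098 for Egr3. Leaving out 1 library gave ranges of -0.071 to 0.25 for Fosb, -0.065 to 0.10 for Egr1, -0.14 to 0.13 for Egr2, -0.15 to 0.033 for Egr3, -0.0066 to 0.45 for Atf3 and -0.037 to 0.098 for Ier2.

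In microglia all 10 ratios stayed under 1 in each of 9 alternatives. The median log2 ratio, -1.34, was -1.41 in cells thinned to 1000 UMIs and -0.76 in cells with 1000 to 2000 UMIs, where 4 members and not 7 passed 1.5-fold. All genes were counted against that limit in the main setting only. The share of cells with Fos was lower in the cKO by 41.6 points, as a difference of -41.6, which was -32.5 at 500 UMIs, -52.0 at 2000 UMIs and -27.7 unthinned. Unthinned differences turned to 5.35 points for Junb, 0.102 for Jund and 7.24 for Atf3, and the unthinned cKO cells are deeper. Depth limits Egr2 and Egr3 most, at 204 and 124 cKO UMIs. The exclusion of cKO cells under 2000 UMIs was also chosen after seeing the data.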
